A study of Mus musculus with 12 samples.

Results

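Ifitm2, Ifitm3 and Bst2 are interferon-induced genes whose protein products sit in cell membranes and restrict enveloped viruses. All 3 were found by gene name among the 9338 genes listed in at least 1 of the 4 tables of differential expression of the study. RNA was sequenced from lung cells of male C57Bl/6J mice, selected with magnetic beads against CD31, a surface protein of endothelial cells, in 4 groups of 3 individual mice. Every mouse carried floxed Tet2 alleles (TET2fl/fl), was injected with tamoxifen at 40 mg/kg on 3 consecutive days and was killed at 30 weeks of age. The TET2 KO mice also carried Cdh5-CreERT2, a tamoxifen-inducible Cre recombinase driven by an endothelial promoter, and the WT mice were Cre negative. Each genotype was fed either standard chow (13% of energy as fat, WT_CHOW and KO_CHOW) or a high-fat diet (HFD, 60% of energy as fat, WT_HFD and KO_HFD) for 20 weeks. Tet2 was therefore targeted in cells that use the Cdh5 promoter and not in other cells that the beads may have carried along.

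Interferons bind receptors that signal through JAK kinases to STAT and IRF transcription factors, which switch on genes that carry interferon-stimulated response elements. IFITM proteins are small membrane proteins. IFITM3 and IFITM2 are found mostly in endosomes, where they hinder fusion of the viral envelope with the host membrane. BST2, also called tetherin or CD317, is anchored in the membrane at both ends and holds budding virions at the cell surface. TET2 oxidises 5-methylcytosine in DNA.

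All 3 genes were listed in the comparison of HFD with chow in WT mice and in that of TET2 KO with WT mice on HFD, and none was listed in the tables of TET2 KO against WT on chow or of HFD against chow in TET2 KO. Values were therefore at hand for the 9 libraries of WT_CHOW, WT_HFD and KO_HFD, and levels in KO_CHOW were not analysed here. A gene is listed only where its unadjusted p in the deposited test was under 0.05. That was so for 30.2% of the 23768 genes for which adjusted p-values had been computed in HFD against chow in WT, 19.2% of 18703 in TET2 KO against WT on HFD, 5.88% of 18463 in TET2 KO against WT on chow and 7.6% of 19511 in HFD against chow in TET2 KO. Being listed already selected genes for a difference in that comparison, so the tests given here are not independent of it. Both comparisons that list the members use the same WT_HFD libraries.

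The 12 libraries held 36.7 to 56.8 M counted reads (median 39.6 M). Tet2, the targeted gene, was listed only in HFD against chow in WT, at 4.73, 5.18 and 5.15 FPKM (fragments per kilobase of gene length, scaled to a common number of reads) in the 3 WT_CHOW libraries and 6.07, 6.32 and 6.71 FPKM in WT_HFD, so Tet2 RNA after deletion was not analysed here and could not serve to check the genotype labels. The endothelial markers Pecam1, which encodes CD31, and Cdh5 were present in every library with values, at 36.0 to 146.1 and 47.8 to 289.7 FPKM. Scgb1a1, a marker of airway club cells, reached 1990.8 to 5481.3 FPKM in the WT libraries, so the selected cells also held epithelial RNA. RNA of monocytes and macrophages was present too. Of their markers, Csf1r was at 61.8 to 220.8 FPKM in the WT libraries and Lyz2 at 1948.0 to 5381.5 FPKM in the TET2 KO libraries.

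Ifitm2 and Ifitm3 lie on the minus strand of chromosome 7, at chr7:140954837-140955987 (ENSMUSG00000060591) and chr7:141009586-141010770 (ENSMUSG00000025492) in GRCm38 (mm10), 53598 bases apart. Bst2 (ENSMUSG00000046718) lies on the minus strand at chr8:71534255-71537456, 22502 bases from Plvap, which encodes an endothelial diaphragm protein. The promoters are shown because all 3 genes are known interferon targets and were listed in the same comparisons. RefSeq windows of 300 bases, from 250 bases before the start of transcription, were searched on both strands for GAAANNGAAA, the core of the interferon-stimulated response element, and for TTCNNNGAA, the core of the STAT-binding gamma-activated site. The stretches upstream of every annotated start are printed 5′ to 3′ on the strand of the gene, with matches in capitals: chr7:140955988-140956211 for Ifitm2, chr7:141010771-141010994 for Ifitm3 and chr8:71537473-71537722 for Bst2. The fourth line is a site of Ifitm3, chr7:141010716-141010742, just after its RefSeq start, where capitals mark the GAAANNGAAA matches only.
Ifitm2 promoter: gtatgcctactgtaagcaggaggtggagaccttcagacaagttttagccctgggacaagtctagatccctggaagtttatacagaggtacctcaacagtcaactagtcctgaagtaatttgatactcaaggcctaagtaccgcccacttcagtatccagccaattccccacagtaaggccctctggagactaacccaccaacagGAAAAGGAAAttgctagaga
Ifitm3 promoter: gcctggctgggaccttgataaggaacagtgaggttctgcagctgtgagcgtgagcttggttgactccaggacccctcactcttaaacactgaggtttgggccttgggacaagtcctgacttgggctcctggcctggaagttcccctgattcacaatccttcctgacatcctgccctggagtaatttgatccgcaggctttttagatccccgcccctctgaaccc
Bst2 promoter: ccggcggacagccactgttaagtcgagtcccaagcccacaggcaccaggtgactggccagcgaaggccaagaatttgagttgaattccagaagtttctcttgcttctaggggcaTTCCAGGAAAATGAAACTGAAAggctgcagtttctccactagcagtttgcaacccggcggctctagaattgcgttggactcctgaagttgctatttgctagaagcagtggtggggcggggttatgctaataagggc
Ifitm3 site: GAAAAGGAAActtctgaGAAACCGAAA

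Ifitm2 held 1 match to GAAANNGAAA, from 46 to 37 bases before its RefSeq start. Ifitm3 held 2, from 2 to 11 and from 19 to 28 bases after its RefSeq start, in sequence that GENCODE places in the 5′ UTR of the first exon, since its start lies 26 bases further upstream. Bst2 held 2 overlapping matches, from 130 to 121 and from 124 to 115 bases before its start. A TTCNNNGAA match overlapped a GAAANNGAAA match in both Bst2 and Ifitm3. The GAAANNGAAA core was found in 3.52% of the 27025 genes with a window and in 35.6% of the 87 other genes of the interferon-response list that had one. At least 2 matches were found in 0.244% of all windows. TTCNNNGAA was found in 8.37% of all windows. The windows held 4 CpG dinucleotides at Ifitm2, 5 at Ifitm3 and 11 at Bst2, against a median of 7 over all windows. A match is a description of these letters, and no binding was measured.

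**Figure D1:**
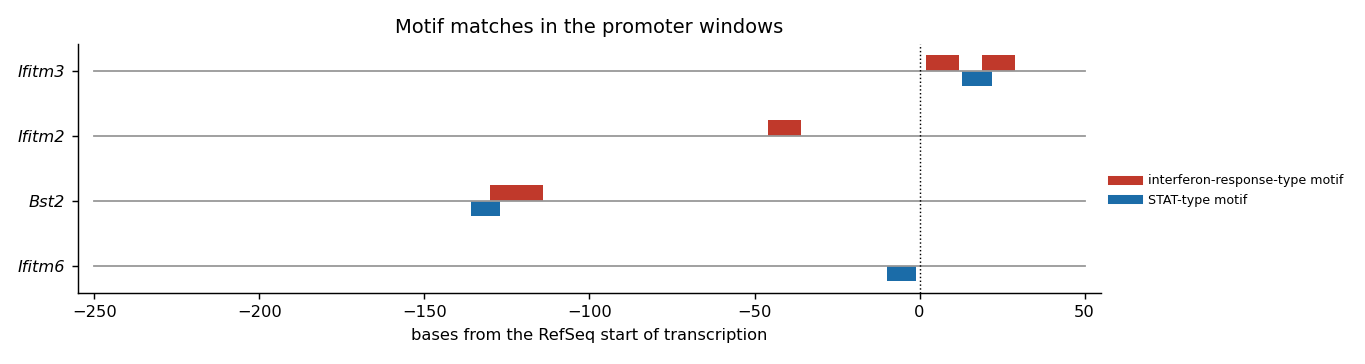
Matches to the interferon-response-type core (red) and the STAT-type core (blue) in the RefSeq windows of Ifitm3, Ifitm2, Bst2 and Ifitm6. The x axis gives bases from the RefSeq start of transcription (dotted line). The 3 members each hold at least 1 red match, at different distances from the start, and the window of Ifitm6 holds none.

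All 3 genes rose on HFD in WT mice. Ifitm3 stood at 110.9, 97.8 and 234.7 FPKM in the 3 WT_CHOW libraries and at 457.4, 480.1 and 592.1 FPKM in WT_HFD. Every WT_HFD library lay above every WT_CHOW library, and replicate 3 of WT_CHOW stood above the other two. The means were 147.8 ± 75.6 and 509.9 ± 72.1 FPKM (SD, n = 3 each), and the fitted log2 fold change was 1.79 (SE 0.34, edgeR quasi-likelihood test, unadjusted p = 0.00117, Benjamini-Hochberg adjusted p = 0.0405). Of the 7330 listed genes, 261 rose by more.

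Ifitm2 followed the same order at a lower level. It stood at 53.6, 53.2 and 131.5 FPKM in WT_CHOW and at 156.8, 174.7 and 221.0 FPKM in WT_HFD. The groups did not overlap, and replicate 3 was again the highest library of WT_CHOW. The log2 fold change was 1.22 (SE 0.37, edgeR unadjusted p = 0.0136), with an adjusted p of 0.0893. Ifitm2 passed at an adjusted p with DESeq2 in place of edgeR (adjusted p = 0.0195) and in edgeR without replicate 3 of WT_CHOW, where the log2 fold change was 1.79 (adjusted p = 0.0119). Over all alternatives its adjusted p ranged from 0.0119 to 1.

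Bst2 was measured at 40.2, 40.7 and 55.7 FPKM in WT_CHOW and at 96.9, 78.0 and 85.4 FPKM in WT_HFD. The groups did not overlap, and the libraries within a group lay closer together than for the IFITM genes. The means were 45.6 ± 8.82 and 86.8 ± 9.51 FPKM (SD, n = 3 each), with a log2 fold change of 0.93 (SE 0.17, edgeR unadjusted p = 0.000786, adjusted p = 0.0371).

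Thus 3 of 3 members were called higher at an unadjusted edgeR p under 0.05, against 42.4% of all listed genes. Only 47.3% of the listed genes were higher, and edgeR called 6712 of all 7330, so most listed genes that were higher were called. At an adjusted edgeR p under 0.05, 2 of 3 members passed, against 2.58% of the genes adjusted over (higher direction). These were Ifitm3 and Bst2, and each passed in 7 of 14 alternative fits. Of the fits without 1 library, only that without replicate 3 of WT_CHOW passed (edgeR adjusted p = 0.0119 and 0.0126). With DESeq2 3 of 3 passed, as did 4546 of the 7330 listed genes in either direction. The groups stood apart for 3 of 3, and 39.8% of all listed genes were higher with no overlap. As with the other shares of listed genes given here, the base holds genes of both directions. The median log2 fold change over all listed genes was -0.32. With 3 libraries a group, an exact two-sided permutation test of 1 gene cannot go below p = 0.1, and each member reached it.

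**Figure D2:**
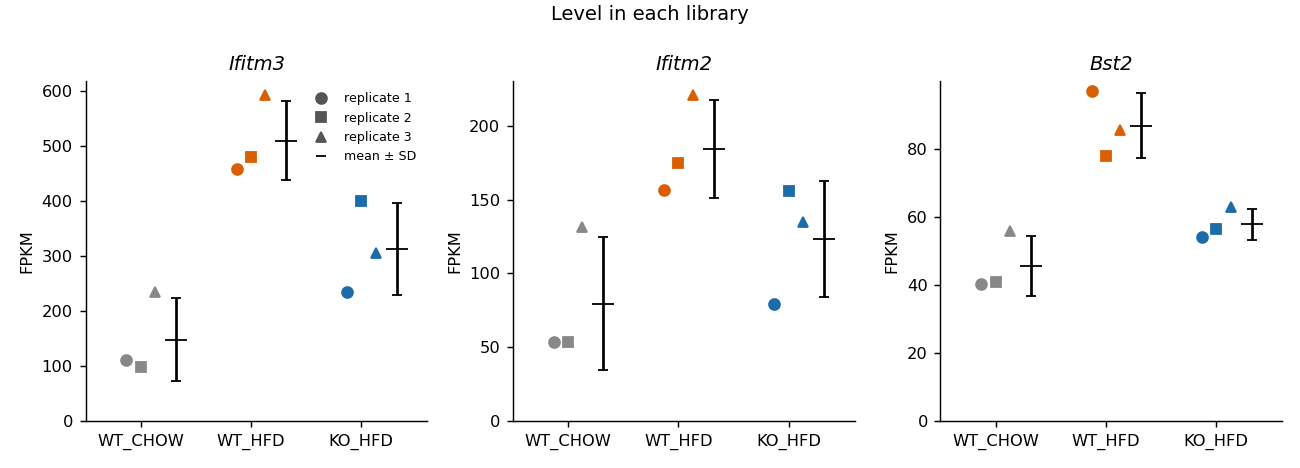
Level of Ifitm3, Ifitm2 and Bst2 in FPKM (y axis, from 0) in each of the 9 libraries with values, by group (x axis). Symbols are single libraries and bars the mean ± SD. All WT_HFD libraries lie above the WT_CHOW and KO_HFD libraries for each gene, and for Ifitm2 the highest KO_HFD library, at 155.8 FPKM, nearly touches the lowest WT_HFD library, at 156.8 FPKM.

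On HFD, Ifitm3 and Bst2 were lower in TET2 KO than in WT mice. Ifitm3 stood at 233.6, 400.1 and 305.6 FPKM in KO_HFD, all below the 3 WT_HFD libraries. The mean was 313.1 ± 83.5 FPKM (SD, n = 3), and Ifitm3 fell by 0.70 on the log2 scale (SE 0.22, edgeR unadjusted p = 0.0132, adjusted p = 0.262). Bst2 stood at 54.0, 56.5 and 63.0 FPKM in KO_HFD, a mean of 57.8 ± 4.63 FPKM, with no overlap with WT_HFD. It fell by 0.58 (SE 0.15, edgeR unadjusted p = 0.0046, adjusted p = 0.261). With DESeq2 in place of edgeR Bst2 passed at an adjusted p of 0.0169, and Ifitm3 did not (adjusted p = 0.0891).

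Ifitm2 was at 79.2, 155.8 and 134.5 FPKM in KO_HFD. Its groups were apart by 1 narrow step only, since normalized counts reached 4262.8 in replicate 2 of KO_HFD and 4271.4 in replicate 1 of WT_HFD. The log2 fold change was -0.58 (SE 0.26), which did not pass the threshold in edgeR (unadjusted p = 0.0611, adjusted p = 0.347). It was -0.34 without replicate 1 of KO_HFD. Without replicate 2 it was -0.78, with an unadjusted edgeR p of 0.0298, and with DESeq2 in place of edgeR the unadjusted p was 0.0493.

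On HFD 2 of 3 members were called lower in TET2 KO, against 39.1% of the listed genes, and the groups stood apart for 3 of 3, against 35.8%. Both shares are over listed genes of either direction, of which 52.2% were higher. No member passed at an adjusted p in edgeR, nor did any other listed gene (0.0% of 18703, lower direction), where the lowest adjusted p was 0.261. At an unadjusted p under 0.05 edgeR called 3241 of the 3939 listed genes, and DESeq2 called 570 at an adjusted p under 0.05, Bst2 among them. Of the listed genes, 949 fell by more than Ifitm3.

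The order of the group means was WT_CHOW, KO_HFD, WT_HFD for each member. KO_HFD overlapped WT_CHOW in each case. Replicate 3 of WT_CHOW was at 234.7 FPKM for Ifitm3 and replicate 1 of KO_HFD at 233.6 FPKM. For Bst2 the neighbouring libraries were at 55.7 and 54.0 FPKM. The mean of KO_HFD was 2.12 times that of WT_CHOW for Ifitm3, 1.55 times for Ifitm2 and 1.27 times for Bst2, none of them beyond the spread between libraries (exact two-sided permutation test on log2 FPKM, p = 0.2 for each, smallest possible 0.1).

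In these libraries the proportions of the members differed between WT_CHOW and the HFD groups and overlapped between WT_HFD and KO_HFD. The ratio of Ifitm3 to Ifitm2 FPKM was 2.07, 1.84 and 1.78 in WT_CHOW, 2.92, 2.75 and 2.68 in WT_HFD and 2.95, 2.57 and 2.27 in KO_HFD. Both HFD groups lay above WT_CHOW without overlap (exact permutation p = 0.1 each, the smallest possible), and the KO_HFD and WT_HFD libraries overlapped (p = 0.5). The ratio of Ifitm3 to Bst2 was 2.40 to 4.21 in WT_CHOW, 4.72 to 6.94 in WT_HFD and 4.32 to 7.08 in KO_HFD. In deviations from the group means over the 9 libraries, Ifitm2 and Ifitm3 moved together (Pearson r = 0.978), more closely than either did with Bst2 (0.695 and 0.685).

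Ifitm2 and Ifitm3 are paralogs with near-identical stretches. Their GENCODE transcripts share an unbroken run of 69 bases, and 20 of the windows of 50 bases in each transcript occur in the other. Of all such windows, 48.5% of the Ifitm2 transcript and 10% of the Ifitm3 transcript also occur in a transcript of another gene, mostly of genes known only by Gm numbers, against 0 of 743 for Bst2. How reads that matched several genes were counted is not given in the sources used here, so the split between the IFITM genes is uncertain, Ifitm2 most of all.

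Endothelial markers moved with the members. Of 15 endothelial markers, 13 were listed in HFD against chow in WT, all higher on HFD, and 12 were called. Their summed level was 312.3 to 876.7 FPKM in WT_CHOW and 941.9 to 1661.9 FPKM in WT_HFD. On HFD 12 of 15 were listed between the genotypes, all lower in TET2 KO, and 10 were called, with sums of 1016.0 to 1835.0 FPKM in WT_HFD and 540.7 to 981.9 FPKM in KO_HFD. Plvap, the neighbour of Bst2, was among the latter (log2 fold change -1.11, SE 0.36, edgeR unadjusted p = 0.0166). No listed endothelial marker was at 0. In bulk samples, fewer cells of a type and less RNA per cell cannot be told apart.

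Of the 10 endothelial markers with values in all 9 libraries, the sum was 326.4, 280.0 and 803.9 FPKM in WT_CHOW, 1549.2, 1205.8 and 880.9 FPKM in WT_HFD and 834.0, 455.9 and 510.8 FPKM in KO_HFD. Replicate 3 of WT_CHOW, the highest chow library for the 3 members, also had the highest marker sum of its group. In WT_HFD replicate 3 had the lowest marker sum and the highest Ifitm2 and Ifitm3. Bst2 was instead highest in replicate 1 of WT_HFD, at 96.9 FPKM, which also had the highest marker sum. Replicate 1 of KO_HFD had the highest marker sum of its group and the lowest level of all 3 members.

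Per 100 FPKM of these markers, Ifitm3 stood at 34.0, 34.9 and 29.2 in WT_CHOW, 29.5, 39.8 and 67.2 in WT_HFD and 28.0, 87.8 and 59.8 in KO_HFD. On this scale all groups overlapped. Bst2 stood at 6.93 to 14.6 in WT_CHOW, 6.25 to 9.69 in WT_HFD and 6.48 to 12.4 in KO_HFD, and also overlapped. With library sizes set by this sum, a choice made after the data were seen, the log2 fold change on HFD in WT was 0.48 for Ifitm3, -0.06 for Ifitm2 and -0.59 for Bst2 (edgeR adjusted p = 1 for each), while the median over all listed genes moved from -0.32 to -1.93. For TET2 KO against WT on HFD these values were 0.36, 0.49 and 0.48, none past the threshold, and the median moved from 0.33 to 1.35. The part of the endothelial markers in the members' differences was not tested beyond these values.

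**Figure D3:**
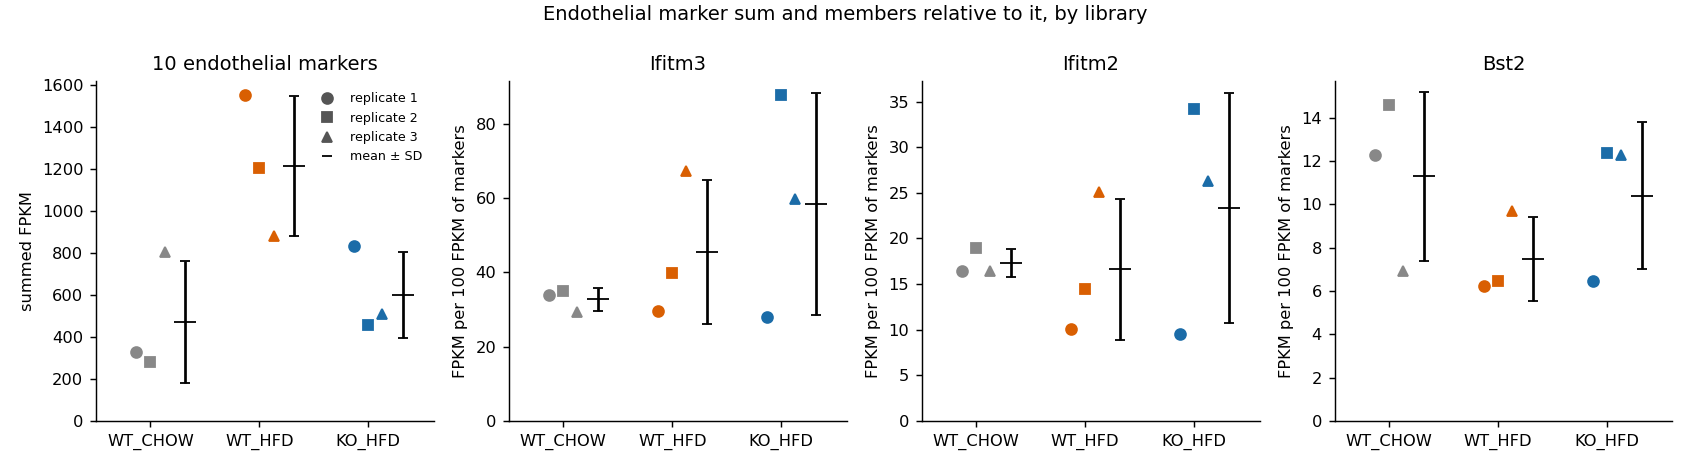
Summed FPKM of 10 endothelial markers (left) and FPKM of Ifitm3, Ifitm2 and Bst2 per 100 FPKM of those markers, in each library by group, with mean ± SD. The marker sum is lowest in WT_CHOW replicates 1 and 2 and highest in WT_HFD replicate 1, at 1549.2 FPKM, and on the scaled axes the groups overlap for every member.

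Markers of other cells moved too. All 7 NK cell markers were listed and called higher on HFD in WT, with sums of 30.0 to 50.7 FPKM in WT_CHOW and 93.1 to 154.3 FPKM in WT_HFD. Ifng, which encodes interferon-γ, was called higher (log2 fold change 0.99, SE 0.29, edgeR unadjusted p = 0.0101, adjusted p = 0.0779). NK cells are among the leukocytes that make interferon-γ, and which cells held the Ifng RNA here was not tested. Of 10 monocyte and macrophage markers 6 were listed, 3 called higher (Ccr2, Csf1r and Ly6c2) and 3 lower (Marco, Mertk and Siglecf). Of 11 dendritic cell markers 2 were listed, Zbtb46, called higher (log2 fold change 1.27), and Siglech, not called (-0.67, SE 0.32, edgeR unadjusted p = 0.0742). Siglech marks plasmacytoid dendritic cells, which are known to carry BST2. Of 9 T cell markers 2 were listed and called higher. In TET2 KO against WT on HFD 1 NK cell marker of 7 (Ncr1, not called) and 1 monocyte marker of 10 (Ccr2, called) were listed, both lower, and of the dendritic cell markers Clec9a was called lower (-0.78) and Spib higher (0.48).

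Lung epithelial markers went in different directions by cell type. Of 11, 6 were listed in HFD against chow in WT. Ager and Hopx, markers of alveolar type 1 cells, were called higher (log2 fold change 1.34 and 1.18, edgeR adjusted p = 0.0476 and 0.0473), and Epcam and the club cell marker Scgb3a2 were called lower (-0.70 and -0.64). Sftpb (0.90) and Scgb1a1 (-0.58) were not called. Ager and Hopx were also the 2 epithelial markers listed in TET2 KO against WT on HFD, both called lower (-1.06 and -0.73, edgeR adjusted p = 0.261 and 0.262). Their summed level there was 70.3 to 85.3 FPKM in WT_HFD and 28.8 to 48.0 FPKM in KO_HFD. They thus had the same direction as the members in both comparisons. The part of these and the other cells in the members' differences was not tested.

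Other IFITM genes were listed less completely. Of Ifitm1, Ifitm5, Ifitm6, Ifitm7 and Ifitm10, only Ifitm6 was listed in HFD against chow in WT. It stood at 20.4, 17.8 and 41.1 FPKM in WT_CHOW and 48.9, 65.4 and 88.9 FPKM in WT_HFD, higher in every HFD library, with replicate 3 highest in each group as for Ifitm2 and Ifitm3. Its log2 fold change was 1.36 (SE 0.36, edgeR unadjusted p = 0.00706, adjusted p = 0.0671). Only Ifitm10 was listed in TET2 KO against WT on HFD, at 3.76, 2.51 and 2.71 FPKM in WT_HFD and 1.78, 1.98 and 1.66 FPKM in KO_HFD, and it fell by 0.73 (SE 0.19, edgeR unadjusted p = 0.00628, adjusted p = 0.261).

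Among 12 other membrane factors that restrict or aid viruses, 4 were listed in HFD against chow in WT, near the 30.2% of all genes listed there. All 4 were called higher, against 42.4% of listed genes. Ly6e, a lipid-anchored surface protein that limits entry of some viruses and aids that of others, stood at 262.8, 197.8 and 257.6 FPKM in WT_CHOW and 433.1, 449.1 and 367.1 FPKM in WT_HFD (log2 fold change 0.80, SE 0.16). Rsad2, which encodes viperin and is also on the interferon-response list, had a log2 fold change of 1.60 (SE 0.33), March1, a membrane ubiquitin ligase, 0.86 (SE 0.19), and Ncoa7, whose short isoform is induced by interferon, 0.65 (SE 0.14). Between the genotypes on HFD, Ly6e (fell by 0.34, SE 0.15) and March8, a ubiquitin ligase that removes surface glycoproteins (fell by 0.47, SE 0.18), were called lower in TET2 KO. Tmprss2, a protease that primes viral glycoproteins, was called higher (0.76, SE 0.32).

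Of 18 enzymes and partners known to act on IFITM3 or BST2, 8 were listed in HFD against chow in WT (against 30.2% of all genes), all higher, and 7 were called (against 42.4% of listed genes). Nedd4, a ubiquitin ligase of IFITM3, had the largest change of these (log2 fold change 1.11, SE 0.17), followed by the palmitoyltransferases Zdhhc2 (0.63, SE 0.19) and Zdhhc6 (0.55, SE 0.11). Fyn, a kinase of IFITM3, and Smurf2 each had a value of 0.47. Zmpste24, a membrane protease that works with IFITM proteins, was at 0.31 and Rnf115, a partner of BST2, at 0.26, while Zdhhc1 was at 0.48 and was not called. In TET2 KO against WT on HFD 3 of 18 were listed, near the 19.2% of all genes listed there, and called lower (against 39.1% of listed genes). These were Nedd4 (fell by 0.66, SE 0.19), Zdhhc1 (fell by 0.55, SE 0.15) and Zmpste24 (fell by 0.35, SE 0.13). None of these passed at an adjusted p in edgeR.

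**Figure D4:**
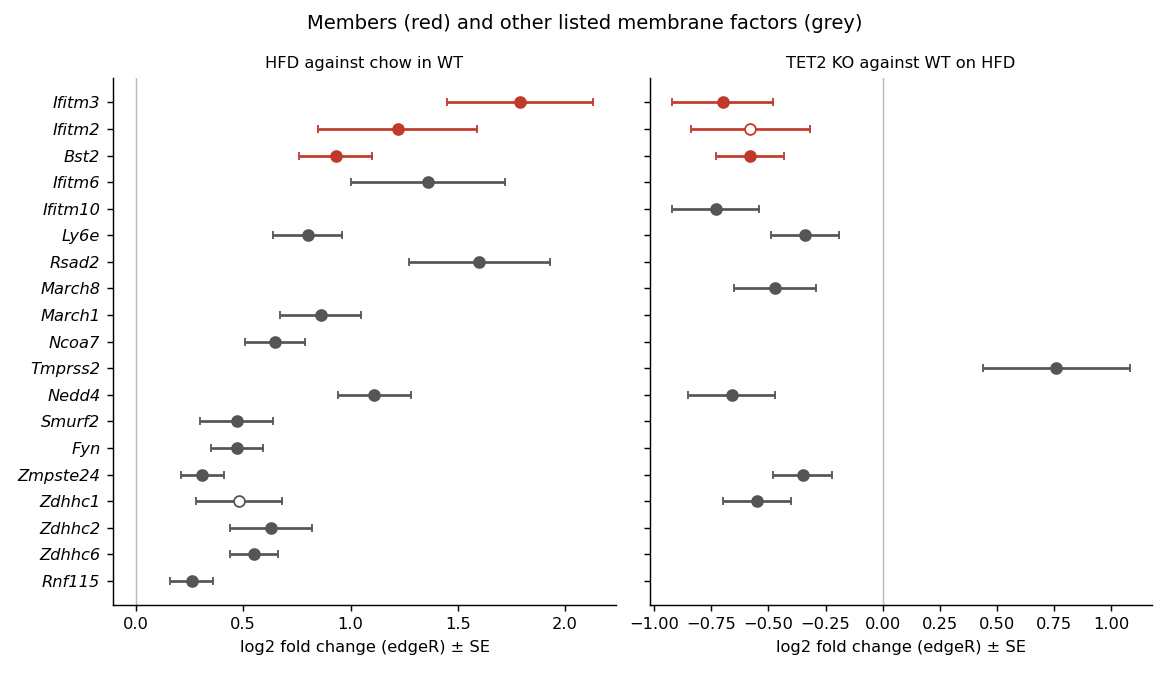
Log2 fold change ± SE (x axis, edgeR) of the members (red) and of the other listed membrane factors and enzymes (grey) in HFD against chow in WT (left) and TET2 KO against WT on HFD (right); open symbols did not pass an unadjusted p of 0.05. Each listed gene lies above 0 on the left, and all but Tmprss2 lie below 0 on the right.

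Among 115 other interferon-response genes, 79 were listed in HFD against chow in WT, of which 75 were called higher (against 42.4% of all listed genes) and 2 lower (against 49.2%). Their median log2 fold change was 0.77, and 42 passed at an adjusted p under 0.05. With library sizes set by the endothelial marker sum, 4 were called higher and 16 lower. Ifitm3 and Ifitm2 lay above that median, as did Bst2. The largest rises were among antiviral effectors, in Ifi44 (log2 fold change 3.19, SE 0.51), Ifit3b (2.83, SE 0.40) and Ifit3 (2.67, SE 0.39), the last a subunit of a complex that binds viral RNA. Of 43 effectors 36 were called higher and 2 lower, Trim25 and Zc3hav1.

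Receptors, regulators and sensors of the pathway were listed as well. Of 9 receptors and kinases 3 were listed, near the 30.2% of all genes listed there. All 3 were called higher (against 42.4% of listed genes), and none passed at an adjusted p in edgeR. They were Ifnlr1 (0.77, SE 0.26), Ifnar2 (0.59, SE 0.16) and Ifngr1 (0.53, SE 0.13). These encode subunits of the receptors for interferon-λ, type I interferon and interferon-γ. The same shares stand beside the other counts of this paragraph. Of 12 transcription regulators 6 were called, all higher, led by Irf7 (0.72, SE 0.14). Usp18, which restrains type I interferon signalling, had a log2 fold change of 1.62 (SE 0.26). Among sensors 9 of 14 were called higher, with Zbp1 at 1.24 (SE 0.18). All 10 listed GTPases of 15 were called higher, led by Gbp5 (1.43, SE 0.19), and all 7 listed genes of 11 for antigen presentation and chemokines, led by Psmb9 (0.95, SE 0.12).

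In TET2 KO against WT on HFD 22 of the 115 were listed, near the 19.2% of all genes listed there. Of these 22, 16 were called lower (against 39.1% of listed genes) and 4 higher (against 43.1%). Their median log2 fold change was -0.53 beside 0.33 for all listed genes. None passed at an adjusted p in edgeR, and 11 to 15 were called when any 1 library was left out. With library sizes set by the endothelial marker sum, 4 were called higher and 0 lower. Ifi44 fell by 1.36 (SE 0.39), the RNA sensor Tlr3 by 0.92 (SE 0.23) and Usp18 by 0.60 (SE 0.23). The 4 called higher were Zc3hav1 (0.62), Trim25 (0.57), Jak2 (0.40) and Ifngr2 (0.34). Irf7 was not listed.

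**Figure D5:**
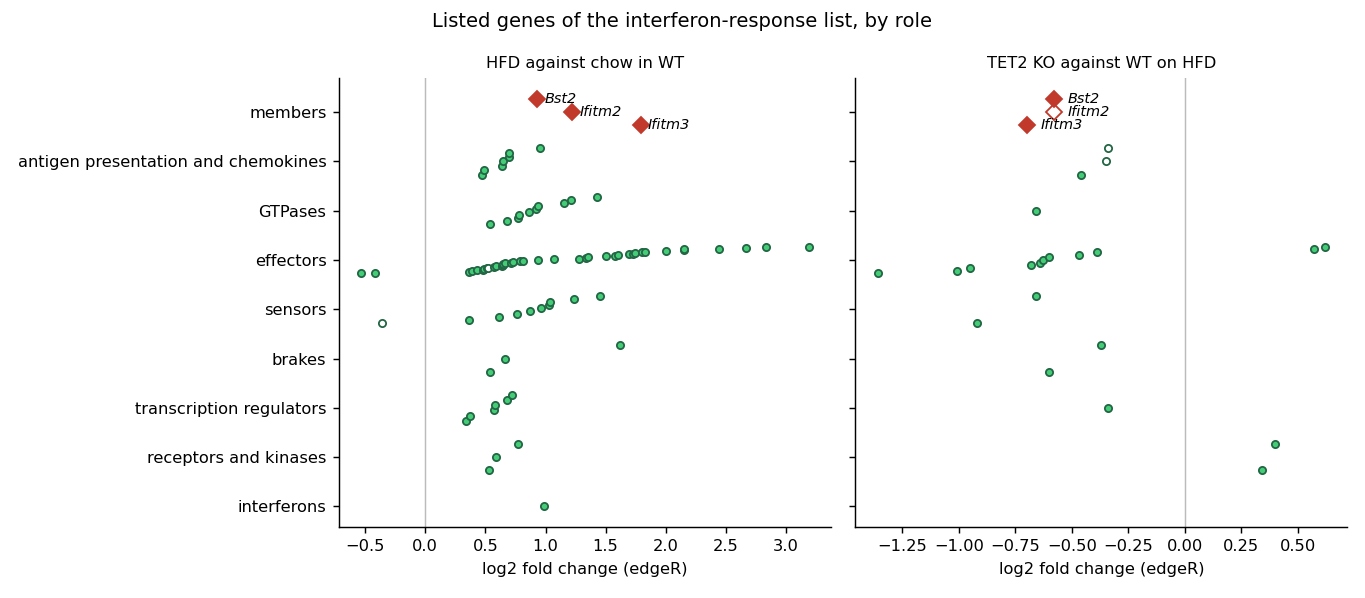
Log2 fold change (x axis, edgeR) of the listed genes of the interferon-response list, by role, and of the members (red diamonds), in HFD against chow in WT (left) and TET2 KO against WT on HFD (right); open symbols did not pass an unadjusted p of 0.05. On the left nearly all points lie above 0, and on the right 18 of 22 listed genes lie below 0.

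In the tables that list no member, other interferon-response genes were present. In TET2 KO against WT on chow 23 of 115 were listed, 16 called higher (against 30.6% of listed genes) and 1 lower. In HFD against chow in TET2 KO 25 were listed, 20 called higher (against 29.3%) and 1 lower. No gene of the list passed at an adjusted edgeR p in either table, and the numbers called fell to as few as 4 and 12 when 1 library was left out. Of the members' family only Ifitm10 was listed there, in HFD against chow in TET2 KO, where it fell by 0.55 (SE 0.23, edgeR unadjusted p = 0.0466, adjusted p = 0.861). A gene that is not listed may still have differed by less than the listing threshold could show.

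The genes whose pattern over the 9 libraries was most like a member were sought among 2747 listed genes with values in all 9 and a mean of at least 50 reads, by Pearson correlation of log2(FPKM + 1). For Ifitm3 they were Krt80, a keratin gene (r = 0.987), Gm35853 (0.987) and Acer3, which encodes a ceramidase (0.986). Gm35853 (0.971) and Krt80 (0.968) were also nearest to Ifitm2, followed by Ifitm3 (0.965). For Bst2 they were Msantd3 (0.989), Lgals9, which encodes galectin-9 (0.985), and Vamp5, a vesicle fusion protein gene (0.984). A gene had values in all 9 libraries only if it was listed for group differences, so these genes can share the differences between the groups. Krt80 kept an r of 0.951 with Ifitm3, and Lgals9 an r of 0.914 with Bst2, in deviations from the group means.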

How the data were processed

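The authors aligned paired-end reads of poly(A) RNA to mm10 with HISAT2, obtained counts per gene from featureCounts, and compared groups with DESeq2. Tool versions, annotation and strand setting are not given in the sources used here. Each deposited table holds, for the 6 libraries of its 2 groups, raw counts, counts normalized by DESeq2 size factors (signal) and FPKM, with the authors' fold changes and p-values. Only genes with a deposited p-value under 0.05 are in the tables (tested on the files). The p-values served to test this and to recover how many genes were adjusted over, and are not reported.

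From these, library totals were recovered from counts, gene length and FPKM. The main test was edgeR 4.0.16 (glmQLFit and glmQLFTest, two-sided, R 4.3.3) on the raw counts of all listed genes, with library sizes from the deposited size factors, called at an unadjusted p under 0.05. The study also uses a p threshold of 0.05, in part with a limit on fold change that was not applied here. Benjamini-Hochberg adjustment ran over all genes the table had been adjusted over. The spread was estimated from genes selected for a difference. No normalized count was set against one of another table. FPKM did not differ between tables. Replicates are individual mice. The test was checked on simulated counts in which most genes were left unchanged. That check does not cover the selection of listed genes for a difference. DESeq2 1.42.0, limma 3.58.1, other scalings and left-out libraries were alternatives. Genes were named by a written rule: the members, every listed membrane factor and, per role of the interferon-response list, up to 3 called genes a direction with the largest change and a mean of at least 50 reads, of which a selection is printed. Ratios, marker levels and genes most like a member are descriptions. Gene positions are those of the files; RefSeq windows (GRCm38.p6) and GENCODE transcripts are of the same build. Members and lists were chosen with earlier results of these data known.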

Additional observations from a re-analysis of the deposited data

How the results depend on the processing

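Of 84 alternative fits of the members, 79 kept the direction of the reported value and 75 also the side of the threshold. Leaving out each library in turn gave log2 fold changes on HFD in WT of 1.56 to 2.30 for Ifitm3, 0.99 to 1.79 for Ifitm2 and 0.85 to 1.11 for Bst2, all called, the highest without replicate 3 of WT_CHOW, and in TET2 KO against WT on HFD of -0.92 to -0.53 for Ifitm3, -0.78 to -0.34 for Ifitm2 and -0.65 to -0.50 for Bst2. For Ifitm2 in TET2 KO against WT on HFD, DESeq2 in place of edgeR gave -0.58 (unadjusted p = 0.0493). Adjusted p-values over the alternatives ranged from 5.34e-05 to 1 for Ifitm3, 0.0119 to 1 for Ifitm2 and 0.000105 to 1 for Bst2 on HFD in WT, and from 0.0891 to 1, 0.233 to 1 and 0.0169 to 1 in TET2 KO against WT on HFD.

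With library sizes set by the endothelial marker sum, chosen after seeing the data, the values on HFD in WT were 0.48 for Ifitm3, -0.06 for Ifitm2 and -0.59 for Bst2, and in TET2 KO against WT on HFD 0.36, 0.49 and 0.48. Called genes of the interferon-response list then numbered 20 (4 higher and 16 lower) in place of 77 (75 higher and 2 lower) on HFD in WT, and 4 (4 higher and 0 lower) in place of 20 (4 higher and 16 lower) in TET2 KO against WT on HFD. At an adjusted p under 0.05 they numbered 42 on HFD in WT and 0 in each other comparison, where 20 (TET2 KO against WT on HFD), 17 (genotype on chow) and 21 (diet in TET2 KO) were called at an unadjusted p. Leaving out 1 library gave 69 to 75 called genes of that list for diet in WT, 11 to 15 for genotype on HFD, 4 to 17 for genotype on chow and 12 to 16 for diet in TET2 KO. Genotype on HFD fell to 11 without replicate 1 of WT_HFD or of KO_HFD and to 13 without replicate 3 of WT_HFD. Genotype on chow fell to 8 and 4 without replicates 1 and 2 of WT_CHOW and to 5 and 4 without replicates 1 and 3 of KO_CHOW. Diet in TET2 KO fell to 12 without replicate 2 of KO_CHOW and to 13 without replicate 2 of KO_HFD. The cause of these shifts was not tested.

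Over the listed genes, deviations of same-numbered libraries had low correlations (-0.14 to 0.09 on HFD in WT and -0.04 to 0.14 in TET2 KO against WT on HFD). Whether such libraries shared more than a number was not tested further. On HFD in WT the replicate block lowered the SE of Ifitm2 from 0.37 to 0.23 and that of Ifitm3 from 0.34 to 0.23. With the replicate block Ifitm2 in TET2 KO against WT on HFD was -0.62 (edgeR unadjusted p = 0.0142), and the block changed no other call of a member at an unadjusted p. On HFD in WT neither Ifitm3 nor Bst2 passed at an adjusted p with the block (edgeR adjusted p = 0.088 and 0.0981). The genotype by diet interaction could not be fitted, since no table gives the members in KO_CHOW. The members had 1280 to 17612 reads a library, so counting error was small beside the spread between mice, and 3 mice a group limit the precision.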
